A study of Mus musculus with 21 samples.

Results

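The genes described are the mouse cytochrome P450 genes of families 1, 2 and 3, the families that hold most drug-metabolising P450s. They were found by symbol, as Cyp followed by 1, 2 or 3, a letter and digits, and were kept where a probe set of the array was assigned to a single gene symbol. By this rule 39 genes were members, of 12393 genes with such a probe set. Where a gene had several probe sets, the one with the highest mean signal was used. The members fell into 12 subfamilies, with 11 genes in Cyp2c, 7 in Cyp2d, 5 in Cyp3a, 4 each in Cyp2b and Cyp2j, 2 in Cyp1a and 1 each in Cyp1b, Cyp2a, Cyp2e, Cyp2f, Cyp2g and Cyp2s. One further P450 probe set, shared by Cyp2a4 and Cyp2a5, carried 2 symbols and was left out.

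P450s are haem enzymes of the endoplasmic reticulum that oxidise drugs, steroids, fatty acids and other lipophilic compounds with electrons passed on by a reductase. In hepatocytes their transcription is set by ligand-activated receptors, CAR (Nr1i3) for Cyp2b10, PXR (Nr1i2) for Cyp3a11 and the aryl hydrocarbon receptor (Ahr) for Cyp1a genes, and by liver factors such as HNF4A. Many mouse Cyp2 and Cyp3a genes are also expressed at different levels in males and females, under the control of the pattern of growth hormone secretion.

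Liver RNA of 9-month-old male mice was measured on 21 Affymetrix arrays, on mice that lack Mdr2 (Abcb4, the canalicular phospholipid transporter whose loss causes chronic bile duct injury) and on control mice. The knockout mice carried the strain label FVB129P2 and the controls FVB129P2/FVBNJ, so that genotype and strain background cannot be told apart. All mice underwent resection of 30 percent of the liver. The day 0 arrays came from the lobe removed at surgery and the others from the remaining liver at day 2 or day 6, which gave 3 arrays for each control group and for the knockout groups at days 2 and 6, and 6 for the knockout at day 0. The 6 knockout day 0 samples came from the mice sampled later, 3 at day 2 and 3 at day 6. Among the controls, mice 263 and 265 were sampled at days 0 and 2 and mouse 303 at days 0 and 6, while mouse 264 at day 2 and mice 393 and 392 at day 6 had no day 0 array. The arrays of a group came from different mice, so that the spread within a group is that between animals. The comparisons asked how knockout liver differed from control liver before and after resection, and how each responded to it.

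Promoters from RefSeq (GRCm38.p6, from 250 bases before to 50 after the annotated start) were found for 32 of the 39 members, 35 promoters in all, and 6 are shown here because the results below turn on these genes. Cyp2b10, Cyp2c50 and Cyp2e1 were lower in knockout liver at day 0, and Cyp3a11, the most studied Cyp3a drug oxidase of mouse liver, did not pass the test in any comparison with all arrays. Each is written 5′ to 3′ on the gene's own strand. The first 4 have capitals where they held a nuclear receptor half-site (AGGTCA), an HNF4 site (CAAAGTCCA) or a TATA box (TATAAA), on either strand. In the last pair, Cyp2b9 and Cyp2b13, capitals mark instead the bases at which the promoters differed.
Cyp2b10, chr7:25897408-25897707, plus strand: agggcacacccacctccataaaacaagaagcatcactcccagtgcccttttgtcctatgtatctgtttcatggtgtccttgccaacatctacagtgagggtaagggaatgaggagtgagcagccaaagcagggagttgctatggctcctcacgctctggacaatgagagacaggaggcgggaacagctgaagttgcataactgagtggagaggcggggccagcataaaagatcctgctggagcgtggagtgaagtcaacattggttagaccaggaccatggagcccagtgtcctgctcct
Cyp2c50, chr19:40089429-40089728, plus strand: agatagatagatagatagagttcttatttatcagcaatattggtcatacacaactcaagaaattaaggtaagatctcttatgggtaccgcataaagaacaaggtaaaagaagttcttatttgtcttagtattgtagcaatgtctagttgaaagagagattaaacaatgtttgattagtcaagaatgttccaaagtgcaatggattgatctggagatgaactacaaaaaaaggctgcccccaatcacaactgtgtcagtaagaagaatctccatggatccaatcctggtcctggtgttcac
Cyp2e1, chr7:140763569-140763868, plus strand: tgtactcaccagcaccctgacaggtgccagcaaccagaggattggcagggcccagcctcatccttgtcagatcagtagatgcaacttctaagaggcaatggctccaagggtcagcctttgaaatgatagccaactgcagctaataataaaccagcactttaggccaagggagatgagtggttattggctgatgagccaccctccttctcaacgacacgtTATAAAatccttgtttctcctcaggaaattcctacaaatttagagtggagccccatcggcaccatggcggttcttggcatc
Cyp3a11, chr5:145879805-145880104, minus strand: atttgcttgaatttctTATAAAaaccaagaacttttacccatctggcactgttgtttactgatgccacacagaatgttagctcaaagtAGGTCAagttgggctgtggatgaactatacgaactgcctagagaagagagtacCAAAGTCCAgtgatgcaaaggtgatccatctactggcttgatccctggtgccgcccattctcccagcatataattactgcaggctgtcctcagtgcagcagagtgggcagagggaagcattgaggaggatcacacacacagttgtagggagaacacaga
Cyp2b9, chr7:26173159-26173458, plus strand: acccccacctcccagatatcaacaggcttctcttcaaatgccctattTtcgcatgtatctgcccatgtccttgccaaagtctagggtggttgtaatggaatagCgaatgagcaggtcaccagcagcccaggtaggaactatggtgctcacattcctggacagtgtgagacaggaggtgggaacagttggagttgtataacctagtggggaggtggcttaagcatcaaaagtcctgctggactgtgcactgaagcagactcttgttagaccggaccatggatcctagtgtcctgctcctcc
Cyp2b13, chr7:26061245-26061544, plus strand: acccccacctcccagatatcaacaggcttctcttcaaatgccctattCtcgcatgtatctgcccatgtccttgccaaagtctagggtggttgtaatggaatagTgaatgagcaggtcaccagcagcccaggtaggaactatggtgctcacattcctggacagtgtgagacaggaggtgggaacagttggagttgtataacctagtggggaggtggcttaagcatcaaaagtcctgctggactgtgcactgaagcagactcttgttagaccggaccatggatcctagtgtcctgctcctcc

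The Cyp3a11 promoter held AGGTCA beginning at position -162 from the start, CAAAGTCCA at -109 and TATAAA at -234. The Cyp2e1 promoter held TATAAA at -31. Those of Cyp2b10 and Cyp2c50 held none of these words, and Cyp2b10 held the core of the dioxin response element, GCGTG (not capitalised), at -101 and -9. The promoters of Cyp2b9 and Cyp2b13 were 99.3% identical by position, with 2 differing bases. These genes lie next to each other after Cyp2b10 in the order of RefSeq genes. Cyp2b10 was 25.7% identical to Cyp2b9 by position, counted without gaps. A shift of a few bases lowers such a value, so it does not measure how alike these promoters are. Over all members, CAAAGTCCA was found in 5 of 35 promoters (14.3%), those of Cyp3a11, Cyp3a16, Cyp2c65, Cyp2c68 and Cyp2c70, and in 0.475% of 32851 RefSeq promoters of the same length. AGGTCA was found in 34.3% of members' promoters and 16.3% of all, and TATAAA in 48.6% and 13.6%. GCGTG was found in 7 of the 35 and in 32.4% of all. An HNF1 site and the STAT5 site TTCNNNGAA were found in 0 members' promoters, against 0.399% and 8.3% of all. Words were counted on both strands, and no matches of different words overlapped in the members. A match is a run of letters, and binding was not measured.

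Signals are log2 values as the authors normalised them, so that a difference of 1 is a 2-fold change, and a signal of 4, close to the array medians of 3.8 to 4.1, was taken as the floor. A gene was tested if it was above 4 on at least 3 arrays, which held for 7320 genes and for 30 of the 39 members. A difference was called where the Benjamini-Hochberg adjusted p of limma over all 7320 genes was below 0.05, and ± gives the SD of a group or the standard error of a difference. The 9 members not tested were Cyp1a1, Cyp1b1, Cyp2b19, Cyp2c65, Cyp2d34, Cyp2j13, Cyp2s1 and Cyp3a16, which were at or below 3.72 on every array, and Cyp2b13, which was above 4 on 1 array. Signals of different genes depend on their probes and are not compared here. Probes can also pick up transcripts of close relatives in these families, which was not tested.

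Abcb4 signal was 7.25 to 8.96 on the 12 knockout arrays and 9.23 to 10.33 on the 9 control arrays, without overlap. The hepatocyte gene Alb was at 14.66 to 15.12 on all arrays. The array's control probes for the ends of Gapdh mRNA differed by over 1 on 3 arrays (3′ minus 5′ signal, log2), by 9.5 for control mouse 265 at day 2, by 1.58 for control mouse 263 at day 2 and by 2.03 for knockout mouse 337 at day 0. A large difference is a usual sign of degraded RNA, and these are called below the 3 arrays of poorer RNA. The same difference for beta-actin was 5.92, 3.91 and 2.48 on these arrays. It was 2.72 for control mouse 303 at day 6, an array that was at 0.94 for Gapdh and is not among the 3. The array of control mouse 265 at day 2 was the lowest of all 21 arrays in 12 of the 30 tested members. Values are therefore given also without the 3 arrays of poorer RNA where that changed a call. That fit leaves control mouse 264 alone at day 2, so a call lost there can come from fewer arrays.

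Before resection, 9 of the 30 tested members were lower in knockout than in control liver and 0 were higher, which is 30.0% of members. Over all genes tested, 9.66% were called, 2.87% lower and 6.79% higher. The median difference was -0.42 over the members and 0.02 over all genes. In 15 members every knockout array lay below every control array and in 1, Cyp2a12, above, where 8.16% of all genes lay without overlap below and 11.6% above. The called genes were Cyp2b10, Cyp2c50 and Cyp2c54, Cyp2d10, Cyp2d13 and Cyp2d22, Cyp2e1, Cyp2g1 and Cyp2j5, and their falls ranged from 4.75 log2 units in Cyp2c54 to 0.41 in Cyp2j5. Of the 30, 3 were above the floor on control arrays only and passed the filter through them, Cyp2g1 and Cyp2b9 on 3 and Cyp2c37 on 4 arrays. Such genes could only be lower in knockout, so their calls, p-values and lack of overlap are no support for a difference. All 3 are among the 15 members that lay without overlap below. Of the other 27 members, 8 were called (29.6%). In bulk liver, fewer hepatocytes and less RNA per hepatocyte cannot be told apart.

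**Figure D1:**
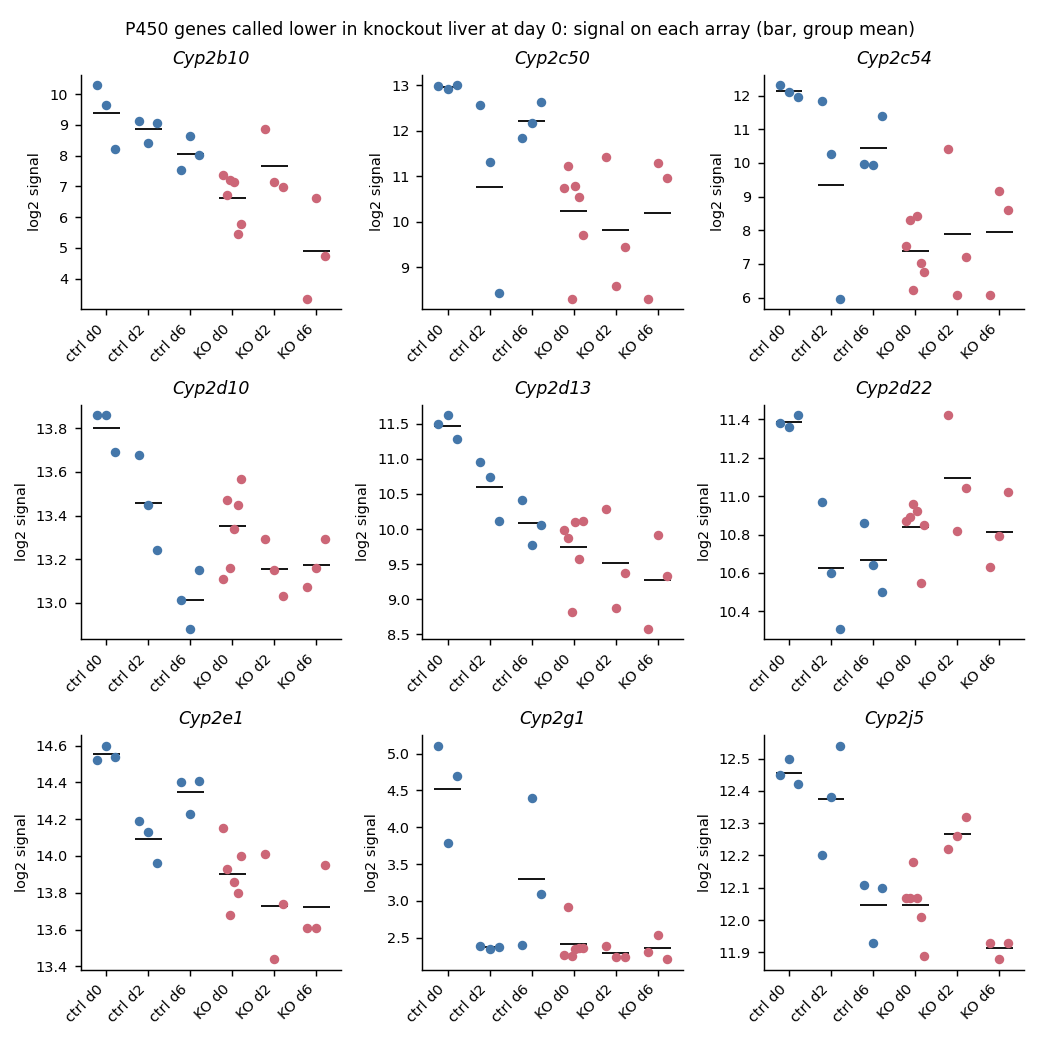
Log2 signal (y axis, a separate scale in each panel) of the 9 P450 genes called lower in knockout liver at day 0, on every array of the 6 groups, with controls in blue, knockouts in red and a bar at each group mean. In each panel the 6 knockout points at day 0 lie below the 3 control points at day 0.

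In the Cyp2c subfamily, enzymes of fatty acid epoxidation and drug oxidation, the pattern was split. Cyp2c54 signal was 12.31, 12.11 and 11.96 on the control day 0 arrays and 7.53, 8.29, 6.22, 8.43, 7.04 and 6.77 on the knockout ones. Every knockout array lay far below every control array, a fall of 4.75 ± 1.04 (26.8-fold, limma adjusted p = 0.00598), and the call was kept in all 28 alternative settings. Cyp2c50 was at 12.98, 12.91 and 13.00 in controls and at 10.75, 11.23, 8.31, 10.79, 10.55 and 9.71 in knockouts. It fell by 2.74 ± 0.83 (6.68-fold, limma adjusted p = 0.0424), and the call was lost without any 1 of 8 arrays, with an adjusted p of up to 0.133. Cyp2c29 was at 14.03, 13.84 and 13.82 in controls and at 12.32 to 13.32 in knockouts, with a median of 13.08. The groups did not overlap but the difference of -0.94 ± 0.44 did not pass (limma adjusted p = 0.223). Without the 3 arrays of poorer RNA it did (-0.91 ± 0.27, limma adjusted p = 0.0365).

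The rest of Cyp2c did not pass at day 0. Cyp2c37, 1 of the genes that passed the filter through control arrays alone, was near the floor. It was at 4.37, 2.66 and 4.24 in controls and 2.48 to 2.57 in knockouts (fitted difference -1.23). Some alternative settings called Cyp2c37, among them a fit that took repeated samples of 1 mouse as a block (-1.24). Such calls are no support for a difference in this gene, so no p is given. Cyp2c38 and Cyp2c39 had positive differences of 1.94 ± 1.14 and 0.99 ± 0.65, with overlapping groups. Cyp2c55 was at 5.44, 5.08 and 3.12 in controls and above 6 in 5 of 6 knockouts (1.54 ± 0.98, limma adjusted p = 0.386). Cyp2c23, Cyp2c68 and Cyp2c70 differed by -0.17, -0.29 and -0.14, with Cyp2c68 at 11.36 to 12.85 and Cyp2c70 at 12.72 to 14.15 over all 21 arrays. In the RefSeq order, Cyp2c37, Cyp2c54, Cyp2c50 and Cyp2c70 end a run of 14 Cyp2c genes. The last 3 had differences of -4.75, -2.74 and -0.14, and whether neighbours differed from each other was not tested.

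Cyp2b10, the classical phenobarbital-inducible P450, was at 10.29, 9.63 and 8.23 in the control day 0 arrays and at 7.36, 6.72, 7.19, 7.15, 5.46 and 5.77 in knockouts. The fall was 2.78 ± 0.63 (6.84-fold, limma adjusted p = 0.00737), and its other probe sets gave -2.87 and -2.81. The call was lost only without control mouse 263 at day 0 (-2.32, limma adjusted p = 0.0604). Cyp2b9, a P450 expressed mainly in females, was at 6.40, 2.30 and 3.90 in controls and at 2.13 to 2.20 in knockouts, all below the floor (limma adjusted p = 0.383). Cyp2b13 and Cyp2b19 were below the floor in both groups.

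In Cyp2d, a subfamily of drug and steroid hydroxylases, 3 of 6 tested members fell. Cyp2d13 was at 11.50, 11.62 and 11.29 in controls and at 9.98, 9.87, 8.82, 10.10, 9.58 and 10.11 in knockouts. The difference was -1.73 ± 0.34 (limma adjusted p = 0.00219), its second probe set gave -1.72, and the call was kept in all alternative settings. Cyp2d22 was at 11.38, 11.36 and 11.42 in controls and at 10.87, 10.89, 10.96, 10.92, 10.55 and 10.85 in knockouts (-0.55 ± 0.17, limma adjusted p = 0.0429). Its second probe set gave -0.73 ± 0.20 (limma adjusted p = 0.0298). Cyp2d10 was at 13.86, 13.86 and 13.69 in controls and at 13.11, 13.47, 13.16, 13.34, 13.45 and 13.57 in knockouts (-0.45 ± 0.14, limma adjusted p = 0.0479). Both calls lay close to the threshold. They were lost without 1 array in 12 and 18 of 21 cases, with adjusted p of up to 0.146 and 0.176. Cyp2d26 and Cyp2d9 differed by -0.47 ± 0.20 and -0.44 ± 0.31 and did not pass, and Cyp2d12 had a positive difference of 0.66 ± 0.39.

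Of the single-gene subfamilies, Cyp2e1, which oxidises ethanol and paracetamol in pericentral hepatocytes, was at 14.52, 14.60 and 14.54 in controls and at 14.15, 13.93, 13.68, 13.86, 13.80 and 14.00 in knockouts. It was lower by 0.65 ± 0.14 (1.57-fold, limma adjusted p = 0.00673), a small difference that was kept in all 28 alternatives. Cyp2g1, a P450 best known from olfactory mucosa, was at 5.11, 3.78 and 4.69 in controls and at 2.25 to 2.92 in knockouts (fitted difference -2.11). It was above the floor on 3 arrays, all of controls, so the size is not measured and the call is given without its p. Cyp2j5, an arachidonic acid epoxygenase, was at 12.45, 12.50 and 12.42 in controls and at 12.07, 12.07, 12.18, 12.07, 12.01 and 11.89 in knockouts (-0.41 ± 0.11, limma adjusted p = 0.0283). Its second probe set gave -1.10 ± 0.55 and did not pass (limma adjusted p = 0.273), and the call was lost without any 1 of the control day 0 arrays or knockout mouse 337. Cyp2a12 and Cyp2f2 differed by 0.24 ± 0.24 and -0.21 ± 0.38, and Cyp2j6 and Cyp2j9 by 0.51 ± 0.28 and -0.17 ± 0.29. Over all 21 arrays Cyp2a12 was at 11.15 to 12.89, Cyp2j6 at 6.45 to 8.15 and Cyp2j9 at 4.18 to 6.17.

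Cyp1a2, which activates aromatic amines and oxidises caffeine, was at 12.85, 13.03 and 13.28 in controls and at 12.40, 11.80, 8.85, 11.81, 11.43 and 11.34 in knockouts at day 0. The groups did not overlap, and the difference of -1.78 ± 0.86 did not pass (95% interval -3.59 to 0.03, limma adjusted p = 0.232). In Cyp3a, 0 of 4 tested members passed at day 0. Cyp3a11 was at 13.99, 14.02 and 13.91 in controls and at 14.16, 13.98, 13.91, 14.09, 14.06 and 13.94 in knockouts. The difference of 0.05 ± 0.17 had a 95% interval of -0.32 to 0.42, so that a change of over 0.42 units lay outside it. Its sign turned when each array was centred on its median (-0.09). Cyp3a25, beside Cyp3a11 in the RefSeq order, was lower on every knockout array (-0.45 ± 0.20, limma adjusted p = 0.179), and Cyp3a13 and Cyp3a44 differed by 0.58 ± 0.36 and -0.12 ± 0.20.

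**Figure D2:**
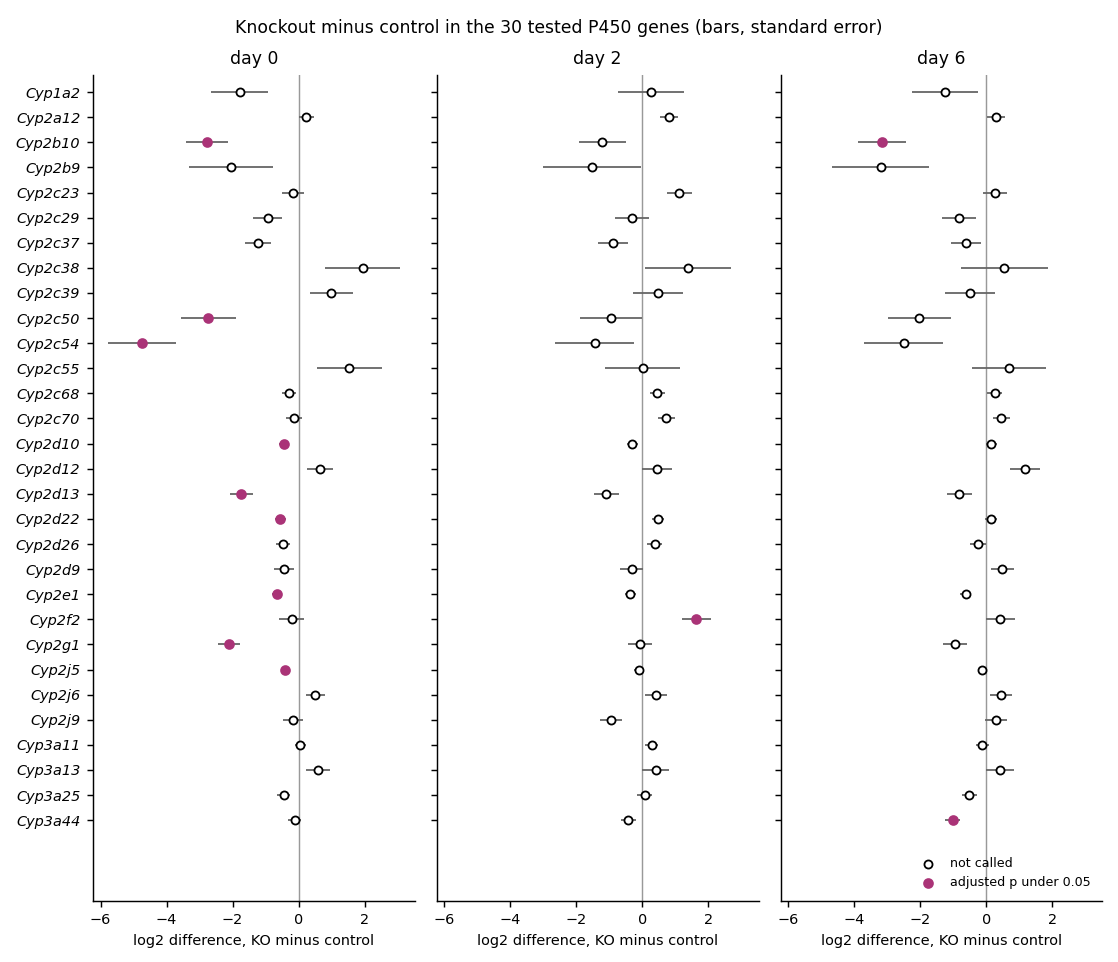
Knockout minus control difference in log2 signal (x axis) of the 30 tested P450 genes (y axis, by subfamily) at days 0, 2 and 6, with bars for the standard error and filled points where the limma adjusted p was under 0.05. Called points number 9 at day 0, all to the left, 1 at day 2 (Cyp2f2, to the right) and 2 at day 6 (Cyp2b10 and Cyp3a44, to the left).

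Markers of other cells differed between the same day 0 groups. Each marker list was summarised per array as the mean of its genes' signals after centring on their means over all arrays. The matrix and stellate cell list (12 genes) was at -1.79 to -1.60 in controls and 0.09 to 1.88 in knockouts, with 8 of 10 tested genes called higher. The bile duct list (9 genes) was at -0.84 to -0.77 and 0.13 to 0.96, with 4 of 6 called higher, although Cftr was below the floor on all arrays. The hepatocyte list (8 genes) was at -0.15 to 0.12 and -0.01 to 0.11, with 0 of 8 called. Of the other lists, 2 of 10 tested macrophage genes were called, Lyz2 higher and Cd163 lower. Calls were also made in 0 of 3 other leukocyte genes, 0 of 8 endothelial genes and 1 of 1 tested pancreas genes (Cela1, lower). Cd3e and Cd79a were below the floor on all arrays. Over all genes tested, 9.66% were called at day 0, 2.87% lower and 6.79% higher. The part of other cells in the P450 differences was not tested.

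At day 2, 1 of 30 members (3.33%) was called, where 5.71% of all genes were, 2.75% higher and 2.96% lower. Cyp2f2, the naphthalene-oxidising P450 of periportal hepatocytes and airway club cells, was at 12.74, 11.89 and 10.21 in controls (mice 263, 264 and 265) and at 13.27, 13.18 and 13.27 in knockouts. It was higher by 1.63 ± 0.44 in knockout liver (3.09-fold, limma adjusted p = 0.0367). Without control mouse 265 the difference was 0.92 (limma adjusted p = 0.114), and without the 3 arrays of poorer RNA it was 1.35 (limma adjusted p = 0.158). The call was also lost without any 1 of the knockout day 2 arrays, with an adjusted p of up to 0.11. None of the members called at day 0 was called here. Cyp2b10 was at 9.13, 8.40 and 9.06 in controls and at 8.85, 7.13 and 6.99 in knockouts, with overlap (-1.21 ± 0.72). Cyp2c54 differed by -1.45 ± 1.20 and Cyp2d13 by -1.09 ± 0.39. Without knockout mouse 250 at day 2, Cyp2d13 was called lower in knockout (-1.48, limma adjusted p = 0.0435). Cyp2c29 differed by -0.32 ± 0.51, and without control mouse 265 it was called lower in knockout (-1.24, limma adjusted p = 0.0412). Cyp2c23, Cyp2a12 and Cyp2c70 had positive differences of 1.12 ± 0.37, 0.81 ± 0.27 and 0.72 ± 0.26 that did not pass (limma adjusted p = 0.0758, 0.0852 and 0.103). In all, 4 members lay without overlap above and 2 below the controls, where 8.28% and 11.9% of all genes did. Of the 2 below, Cyp2c37 had passed the filter through control arrays alone.

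At day 6, 2 of 30 members (6.67%) were called, both lower in knockout, where 1.73% of all genes were called, 0.492% lower and 1.24% higher. Cyp2b10 was at 7.53, 8.64 and 8.03 in controls and at 3.35, 6.63 and 4.73 in knockouts. The fitted fall was 3.16 ± 0.72 (limma adjusted p = 0.0275). Knockout mouse 312, at 3.35, was below the floor, so the size is not fully measured. Without that array the difference was -2.39. Cyp3a44, a testosterone-oxidising Cyp3a with higher expression in females, was at 5.05, 5.44 and 6.07 in controls and at 4.36, 4.49 and 4.64 in knockouts (-1.02 ± 0.23, limma adjusted p = 0.0223). Without control mouse 392, the highest array, its difference was -0.75 (limma adjusted p = 0.115). The Cyp3a44 call was also lost without control mouse 393 or any 1 of the 3 knockout arrays, and the Cyp2b10 call without control mouse 392 or 393 or knockout mouse 312 or 337. Cyp2e1 lay lower on every knockout array (14.40, 14.23 and 14.41 against 13.61, 13.61 and 13.95), with a difference of -0.62 ± 0.17 that narrowly failed (limma adjusted p = 0.0705) and passed when each array was centred on its median (-0.80, limma adjusted p = 0.0269). Cyp2c54 and Cyp2c50 differed by -2.50 ± 1.20 and -2.03 ± 0.95 without overlap and were not called. Cyp3a11 was at 13.94, 14.22 and 14.01 in controls and 13.87, 13.98 and 13.97 in knockouts. In all, 9 members lay without overlap below and 2 above the controls, where 10.8% and 8.63% of all genes did. The 9 include Cyp2c37, which had passed the filter through control arrays alone.

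After resection of control liver, 4 of 30 members (13.3%) were called lower at day 2 than at day 0 and 0 higher, where 9.51% of all genes were called, 4.28% lower and 5.23% higher. In 15 members all day 2 arrays lay below all day 0 arrays and in 2 above, where 10.5% and 15.2% of all genes did. Cyp2f2 fell from 13.66, 13.82 and 13.59 to the day 2 values given above, by 2.08 ± 0.44 (limma adjusted p = 0.00933). Cyp2c23, a renal and hepatic arachidonic acid epoxygenase, was at 12.44, 12.39 and 12.17 at day 0 and at 10.69, 11.29 and 9.24 at day 2 (-1.93 ± 0.37, limma adjusted p = 0.00561). Cyp2g1 was below the floor on all day 2 arrays, at 2.38, 2.35 and 2.37, so that its fall has no measured size. It had passed the filter through controls of days 0 and 6 alone and could only be lower at day 2. Its call, counted among the 4, is therefore no support for a fall. Cyp2g1 and Cyp2c55, which was also below the floor on all day 2 arrays, are among the 15 members that lay below. Their lack of overlap is likewise no support. Cyp2d22 was at 10.97, 10.60 and 10.31 at day 2 (-0.76 ± 0.19, limma adjusted p = 0.0207). This call was lost without any 1 of the control day 0 arrays or control mouse 265 at day 2. The second probe set of Cyp2d22 gave -1.51 ± 0.23 (limma adjusted p = 0.00241). This comparison shares its day 0 control arrays with the comparison of genotypes at day 0, in which Cyp2d22 and Cyp2g1 differed by -0.55 and -2.11 and Cyp2c23 and Cyp2f2 by -0.17 and -0.21.

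The size of the day 2 fall in controls differed between mice. Against the mean of the control day 0 arrays, the median over the 30 members was -0.27 in mouse 263, -0.39 in mouse 264 and -1.12 in mouse 265, and 3, 9 and 19 members were lower by more than 1 unit. The same medians over all genes were 0.01, 0.04 and 0.21. Mouse 265 had the 3′ to 5′ Gapdh difference of 9.5 and mouse 263 that of 1.58, while mouse 264 was at 0.07. Cyp1a2 was at 12.67, 10.43 and 7.74 in the 3 mice, Cyp2c54 at 11.83, 10.26 and 5.97 and Cyp2c29 at 13.85, 13.63 and 10.99. Mouse 265 was the lowest in each. Without the 3 arrays of poorer RNA, which leaves mouse 264 alone at day 2, only Cyp2f2 was called (-1.80, limma adjusted p = 0.0434). Without mouse 263 alone, 9 members were called, 8 lower, among them Cyp1a2 (-3.97, limma adjusted p = 0.014) and Cyp3a11 (-0.61, limma adjusted p = 0.045), and Cyp3a13 higher (1.66, limma adjusted p = 0.0197). The part of RNA quality in these falls was not tested further. Cyp3a11 was at 14.00, 13.80 and 12.92 (-0.40 ± 0.20, limma adjusted p = 0.208), Cyp2e1 at 14.19, 14.13 and 13.96 (-0.46 ± 0.17, limma adjusted p = 0.0873) and Cyp3a13 at 9.21, 10.40 and 10.49, above its day 0 range of 8.56 to 8.99 (1.24 ± 0.42, limma adjusted p = 0.0685).

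**Figure D3:**
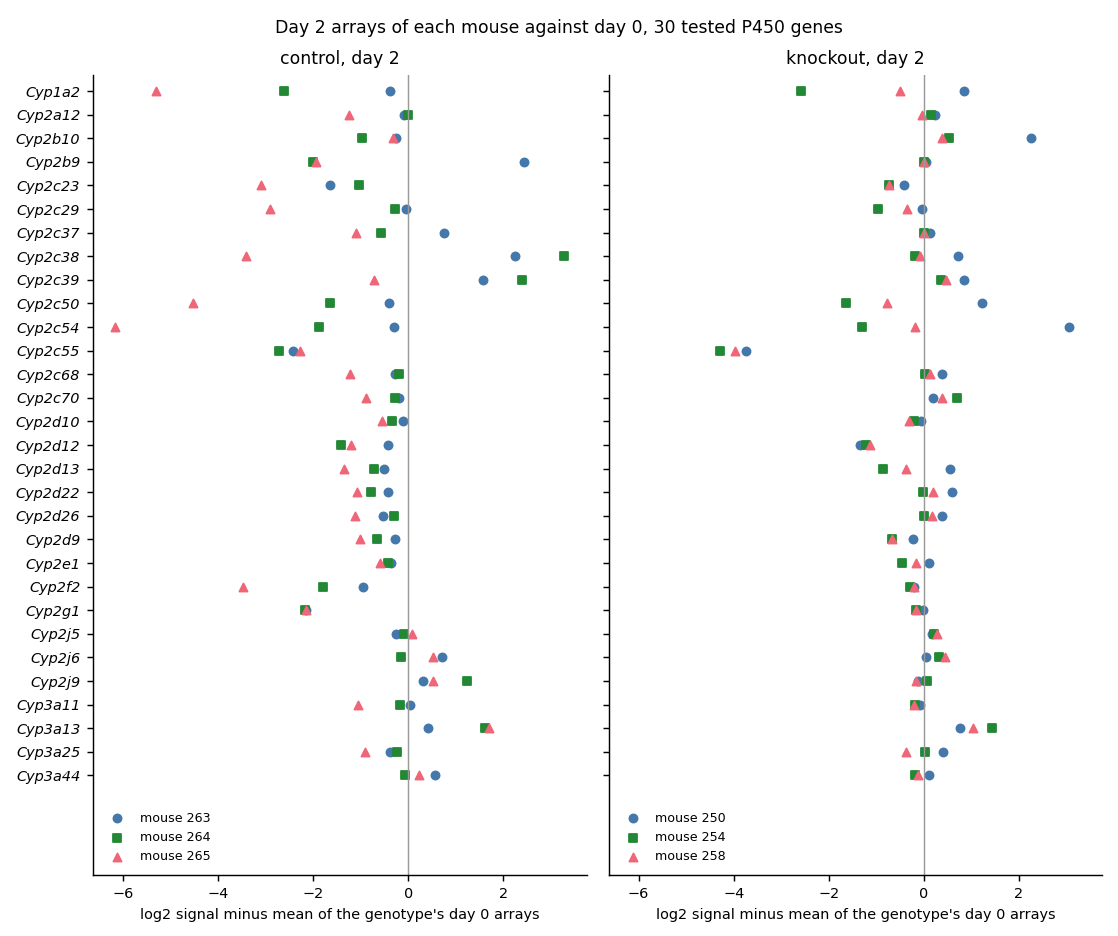
Log2 signal of each day 2 array minus the mean of the day 0 arrays of its genotype (x axis) for the 30 tested P450 genes (y axis), in control (left) and knockout liver (right), with 1 symbol per mouse. The triangles of control mouse 265 reach furthest left in most genes, with 19 members more than 1 unit below day 0, against 2 to 5 members in the knockout mice.

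At day 6, 2 of 30 members (6.67%) were called lower in controls than at day 0, Cyp2d10 and Cyp2d22, where 2.86% of all genes were called, 0.738% lower and 2.12% higher. Cyp2d10 was at 13.01, 12.88 and 13.15 (-0.79 ± 0.16, limma adjusted p = 0.0119), a call lost without control mouse 263 or 265 at day 0, and Cyp2d22 at 10.86, 10.64 and 10.50 (-0.72 ± 0.19, limma adjusted p = 0.0491). The latter was lost without 1 array in 15 of 21 cases. The second probe set of Cyp2d22 gave -0.93 ± 0.23 (limma adjusted p = 0.0426). All 6 tested Cyp2d members had day 6 arrays below all day 0 arrays, with Cyp2d13 at -1.38 ± 0.39 and Cyp2d9 at -1.20 ± 0.35 not called (limma adjusted p = 0.062 and 0.0717). Cyp2d9 was at 11.30 on the array of mouse 392 and at 12.95 and 13.21 on the other day 6 arrays, against 13.59 to 13.79 at day 0. Over all members 14 lay without overlap below day 0 and 1 above, where 11.2% and 12.2% of all genes did.

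In knockout liver 0 of 30 members were called at day 2 or day 6 against day 0. By limma 0.0% and 0.137% of all genes were called. An unadjusted p under 0.05 was found in 3 and 1 members and in 6.0% and 5.44% of all genes. At day 2, 2 members lay without overlap below and 1 above day 0, where 1.6% and 0.97% of all genes did, and at day 6 these were 1 and 0 members against 1.83% and 1.67%. The largest fitted difference at day 2 was in Cyp2c55, a Cyp2c oxidase of arachidonic and linoleic acid. It was at 6.67, 6.85, 2.78, 6.71, 7.30 and 6.21 at day 0, at 2.34, 1.81 and 2.11 at day 2 and at 3.90, 5.13 and 6.71 at day 6. All day 2 arrays were below the floor, so the size is not measured. Cyp2c55 passed the filter through arrays of days 0 and 6 alone and could only be lower at day 2, so no p is given. The fitted difference was -4.00 and was not called. A call without knockout mouse 258 at day 0 (-4.66) is no support for a fall. Neither is its place among the 2 members that lay without overlap below day 0. In the controls, Cyp2c55 was also below the floor on all day 2 arrays, at 2.13, 1.83 and 2.28. It was at 5.44, 5.08 and 3.12 at day 0 (fitted difference -2.47, not called). In knockout mouse 250 several members were higher at day 2 than in the same mouse at day 0, with Cyp2c54 up by 2.89 and Cyp2b10 by 1.49, while in mouse 254 Cyp2c54 fell by 2.21 and Cyp1a2 by 3.11. Cyp2e1 was at 14.01, 13.44 and 13.74, Cyp2c29 at 12.91, 11.99 and 12.60, Cyp1a2 at 12.12, 8.69 and 10.77 and Cyp3a11 at 13.93, 13.83 and 13.80 at day 2. At day 6 they were at 13.61, 13.61 and 13.95, at 12.03, 12.86 and 13.15, at 10.74, 11.47 and 11.58 and at 13.87, 13.98 and 13.97.

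The difference between genotypes in the response to resection was tested directly, and 0 members were called at day 2 or day 6, where 0.0% and 0.164% of all genes were, at day 6 0.0137% with a higher and 0.15% with a lower response in knockout liver. At an unadjusted p under 0.05, 7 members had a higher response in knockout liver at day 2 and 0 a lower one, where 14.6% of all genes were under that p, 5.79% with a higher response. At day 6, 3 members had a higher response and 1 a lower one at that p, as did 5.36% of all genes in either direction. Of the members under that p at day 2, Cyp2d22 had a difference of 1.01 ± 0.25 (limma adjusted p = 0.117). Cyp2f2 had a day 2 difference of 1.84 ± 0.58 (limma adjusted p = 0.191). Cyp2g1, counted among the members under that p on both days, was below the floor on all knockout arrays. It passed the filter through control arrays alone, so its place in these counts is no support. The day 2 response also rests on the arrays of poorer RNA of control mice 263 and 265. Without the 3 arrays of poorer RNA, the median day 2 response difference of the members was 0.33, against 0.52 with all arrays. A fall after resection in controls alone was therefore not shown for any member.

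One control array stood apart in several members that differ between the sexes. On the array of mouse 392 at day 6, Cyp2b9 was at 10.31, where the other 20 arrays were at 2.10 to 6.64, and Cyp2b13 was at 6.78, where the others were at 2.04 to 2.16. Cyp3a44 was at 6.07 (others 4.30 to 5.44) and Cyp2c39 at 11.53 (7.72 to 10.83). Cyp2c38 was also highest there, but it did not stand apart, at 9.65 against 2.94 to 9.64. Cyp2d9, a steroid hydroxylase expressed mainly in males, was at 11.30, the lowest of all arrays (others 12.57 to 13.79). These members, and the genes of the next sentences, were chosen after their values were seen. The female-biased sulfotransferase Sult3a1 was at 11.39 on this array and at 2.46 to 2.86 on the others, the probe set shared by Cyp3a41a and Cyp3a41b at 9.00 against 4.54 to 6.33, and the male-biased Cyp4a12a at 6.93 against 10.37 to 12.33. Xist was at 2.61 (2.45 to 2.87 on the others) and the Y-linked Eif2s3y at 7.76 (7.37 to 8.26), both within the range of the other arrays of mice labelled male. Not all sex-biased genes stood apart on this array. The male-biased steroid dehydrogenase Hsd3b5 was at 8.39 against 2.39 to 12.24 on the others, and the probe set shared by Cyp2a4, a female-biased steroid hydroxylase, and Cyp2a5 was at 10.45 against 3.09 to 12.90. Control mouse 263 had intermediate Cyp2b9 on both of its arrays, 6.40 and 6.64, and Cyp2c37 at 4.37 and 4.51, while Cyp2b9 was at 2.10 to 2.21 on all 12 knockout arrays.

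**Figure D4:**
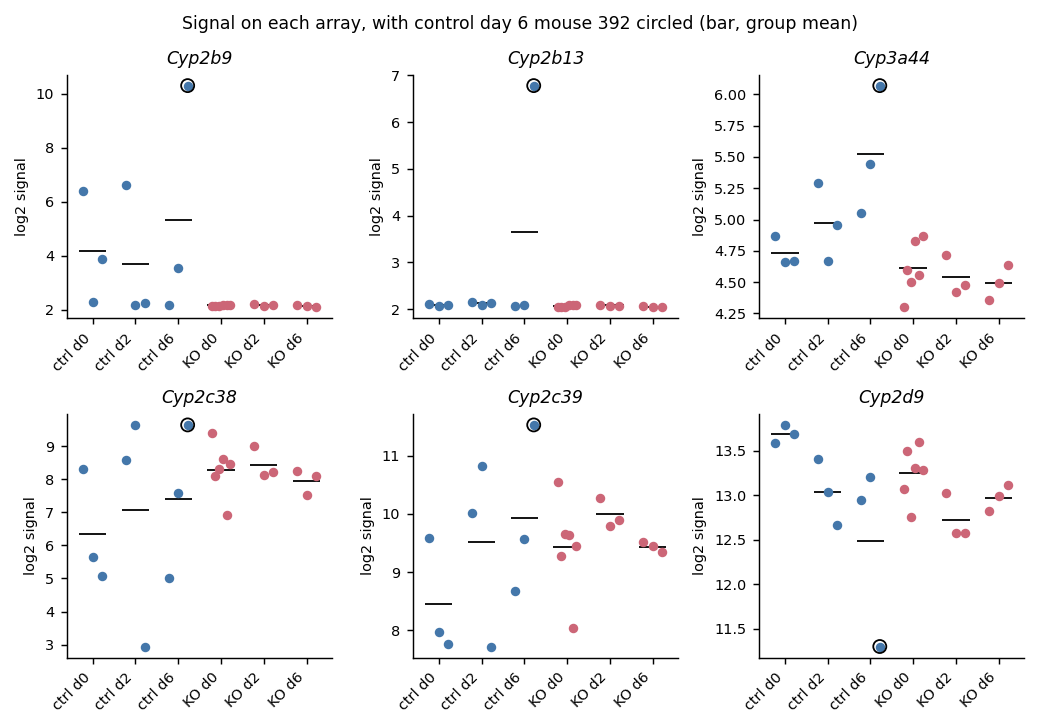
Log2 signal (y axis, a separate scale in each panel) of 6 P450 genes on every array of the 6 groups, with the array of control mouse 392 at day 6 circled and a bar at each group mean. The circled array is the highest of 21 in Cyp2b9, Cyp2b13, Cyp3a44, Cyp2c38 and Cyp2c39 and the lowest in Cyp2d9. In Cyp2c38 it is nearly level with another array (9.65 against 9.64).

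Members varied together across arrays about as much within as between subfamilies. As a description over 21 arrays that share mice, groups and array quality, the median Pearson r was 0.26 over 70 pairs of the same subfamily (-0.51 to 0.95) and 0.21 over 365 pairs of different subfamilies (-0.76 to 0.92). The closest pair was Cyp2c50 and Cyp2c54. Across subfamilies, Cyp2c23 and Cyp2f2 had r = 0.92, and Cyp1a2 and Cyp3a13 had r = -0.76. Of the 7319 other tested genes, those most like Cyp2c54 were Cyp2c50 (r = 0.951), the organic anion transporter Slc22a7 (0.928) and the peroxisome assembly gene Pex16 (0.925). Those most like Cyp2b10 were Il1rap (0.873), Aspa (0.814) and Creb3l3 (0.795), and those most like Cyp3a11 were Dctn3 (0.922), the haem synthesis enzyme Alad (0.905) and Slc22a18 (0.905).

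Of the receptors and liver factors that control these genes, 20 of 23 listed were tested, and at day 0 2 were called lower in knockout and 1 higher, 15.0% of the list against 9.66% of all genes. CAR (Nr1i3) was at 8.93, 9.02 and 9.55 in controls and at 7.44, 7.59, 8.01, 7.58, 7.33 and 6.78 in knockouts. The groups did not overlap (-1.71 ± 0.52, limma adjusted p = 0.0449), and the call was lost without 1 array in 13 of 21 cases, with an adjusted p of up to 0.19. SHP (Nr0b2), a repressor of bile acid synthesis, was at 9.74, 9.73 and 9.94 in controls and at 8.02 to 9.16 in knockouts (-1.23 ± 0.31, limma adjusted p = 0.0143), and NRF2 (Nfe2l2), a factor of the oxidative stress response, was higher by 0.94 ± 0.23 (limma adjusted p = 0.0117). Both calls were lost without control mouse 265 or 303 at day 0. PXR (Nr1i2, -0.38 ± 0.24), Ahr (0.53 ± 0.20), Rxra (-0.14 ± 0.26) and Hnf4a (0.10 ± 0.19) did not pass. None of the list was called between genotypes at day 2 or day 6, where 3 and 1 had an unadjusted p under 0.05 by limma, as did 24.4% and 12.9% of all genes. In controls Foxa3 rose by 1.27 ± 0.32 and Nr0b2 fell by 1.41 ± 0.35 at day 2 (limma adjusted p = 0.0212 and 0.0205), calls lost without the 3 arrays of poorer RNA, and Ahr rose by 0.92 ± 0.23 at day 6 (limma adjusted p = 0.0395). The Ahr call was lost without any 1 of 7 arrays and with the mean of its probe sets (0.45, limma adjusted p = 0.224). Of 7 tested genes of growth hormone signalling, 0 differed between genotypes at any day by limma, where 1 had an unadjusted p under 0.05 at day 6 and 0 at days 0 and 2 (22.3% of all genes at day 0). Stat5a rose in controls at day 6 (0.88 ± 0.20, limma adjusted p = 0.0197), a call lost without control mouse 263 or 303 at day 0 or control mouse 392 at day 6.

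P450s also need haem and electrons, and 17 of 19 listed genes of these routes were tested. Ferrochelatase (Fech), which puts iron into haem, was the 1 called gene at day 0, 5.88% of those tested against 9.66% of all genes. It was lower in knockout by 0.64 ± 0.16 (limma adjusted p = 0.0151). This call was lost without control mouse 265 at day 0 and with the mean of its probe sets. Alas1, the rate-limiting enzyme of haem synthesis, was at 12.04, 10.84 and 11.66 in controls at day 0, at 8.97, 9.46 and 9.45 at day 2 and at 12.22, 10.11 and 11.01 at day 6. In knockouts it was at 9.72 to 11.37 at day 0, at 12.08, 10.77 and 11.59 at day 2 and at 11.45 to 12.22 at day 6. It thus fell in controls at day 2 by 2.22 ± 0.49 (limma adjusted p = 0.0124), and at day 2 was higher in knockout than in control by 2.19 ± 0.49 (limma adjusted p = 0.0178). The cytochrome b5 reductase Cyb5r3 fell by 1.56 ± 0.29 in controls at day 2 (limma adjusted p = 0.00531) and was higher in knockout at day 2 by 1.10 ± 0.29 (limma adjusted p = 0.0339). All of these day 2 calls were lost in the fit without the 3 arrays of poorer RNA. That fit leaves control mouse 264 alone at day 2, so it cannot tell a smaller difference from fewer arrays. Hmox2 rose and Cyb5a fell in controls at day 2, by 0.76 ± 0.20 and 0.50 ± 0.16 (limma adjusted p = 0.025 and 0.0489), and these calls too were lost without the 3 arrays.

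Of 43 listed genes of other oxidation and of conjugation, 31 were tested. At day 0, 4 were lower in knockout and 2 higher, 19.4% of those tested against 9.66% of all genes (2.87% lower and 6.79% higher). The sulfotransferase Sult5a1 fell by 4.66 ± 0.44 (limma adjusted p = 1.84e-06) and was again lower at day 6, by 3.50 ± 0.51 (limma adjusted p = 0.00061), and both calls were kept in all alternatives. The carboxylesterase Ces1e fell by 2.80 ± 0.67 and the glycosyltransferase Ugt3a1 by 2.13 ± 0.46 (limma adjusted p = 0.0117 and 0.00542), calls lost without control mouse 263 and 265 at day 0, respectively. Sult1b1 was also lower, and Fmo5 and Aldh1a7 were higher. At day 2, Fmo2, Fmo5, Sult1a1 and Sult1d1 were higher in knockout and Ugt3a1 lower, with 26 not called. These were 16.1% of those tested, against 5.71% of all genes, and the calls were lost without the 3 arrays of poorer RNA. In controls 12 of 31 (38.7%) fell at day 2 and 0 rose, where 4.28% of all genes fell and 5.23% rose, led by the carboxylesterases Ces1g (-3.37 ± 0.86), Ces1f (-3.14 ± 0.98), Ces1e (-2.98 ± 0.78) and Ces2a (-2.40 ± 0.48), with limma adjusted p from 0.00654 to 0.0499. All of these calls were lost without the 3 arrays of poorer RNA. With control mouse 264 alone left at day 2, that fit cannot tell a smaller fall from fewer arrays. At day 6 Ugt2b38 was the 1 gene called in controls, 3.23% of those tested against 2.86% of all genes. It was lower by 3.08 ± 0.78 (limma adjusted p = 0.0391), a call lost without any 1 of 7 arrays.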

How the data were processed

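Liver RNA was measured with 3-prime labelling on 1-colour Affymetrix arrays. The deposited table holds log2 values of 22690 probe sets on 21 arrays, made by the authors with GCRMA, per the submitters' processing notes (version not given in the sources used here). GCRMA corrects background by probe sequence and normalises between arrays, which compresses low signals. Genes were named by the platform annotation. Of the probe sets, 20380 had 1 symbol, 691 several and 1555 none, and 64 were array controls. The number of arrays, not counting error, limits the precision.

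Groups came from the sample titles. The 6 group means were fitted in 1 limma model (R 4.3.3, limma 3.58.1) without covariates, with 9 contrasts and Benjamini-Hochberg adjustment over 7320 genes above a log2 value of 4 on at least 3 arrays. The fit was tested on simulated data with known changes. Differences are on the log2 scale of the deposited values. Repeated samples of 1 mouse were treated as separate. Same-numbered samples come from the same animal, per the labels, and over 9 such pairs of arrays, values after subtraction of the group mean correlated at -0.0568 to 0.303 (median 0.119, against -0.0107 for other pairs). Alternatives were no filter, the mean or each of a gene's probe sets, quantile normalization, median centring, only the groups compared, the mouse as a random block and each array left out.

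Per-array values are given for members called between genotypes, for up to 4 called members per direction of other comparisons, and for Cyp1a2, Cyp2b10, Cyp2c29, Cyp2e1 and Cyp3a11. Of pathway lists, up to 4 called genes per comparison and Nr1i2, Nr1i3, Ahr, Rxra, Hnf4a and Alas1 are described. Por was not analysed here. Members, lists and rules were chosen with earlier results of these data known. Promoters were matched by symbol to a RefSeq table, and 7 members were not matched.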

Additional observations from a re-analysis of the deposited data

Results flagged for a closer look

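In the knockout day 0 group of 6 arrays, each of the 30 tested members was checked for an array far from the rest, by the gap to its nearest neighbour over the range of the group (Dixon's test, 95% level, for which chance gives about 1 group in 20). In 4 members an array stood apart. Cyp1a2 was at 8.85 in mouse 258, where the other 5 arrays were at 11.34 to 12.40. Cyp2c55 was at 2.78 in the same mouse, against 6.21 to 7.30. Cyp2d22 was at 10.55 in mouse 332, against 10.85 to 10.96, and Cyp2g1 was at 2.92 in mouse 254, against 2.25 to 2.36, all below the floor of 4. Mouse 258 was the lowest of the 6 arrays in 13 of 30 members and had the highest mean of the matrix and stellate markers, 1.88.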

How the results depend on the processing

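Of 18 called differences of members, 4 kept their call under all alternatives tried, those of Cyp2c54, Cyp2d13, Cyp2e1 and Cyp2g1 between genotypes at day 0. That of Cyp2g1 says nothing about stability, since this gene passed the filter through control arrays alone. Over the 18, 418 of 520 alternative values kept the call, 102 lost it and 0 changed sign. The count of members called between genotypes at day 0, 9 as reported, was 4 to 11 when 1 array was left out, 4 without control mouse 263 and 5 without control mouse 303, both at day 0. With 1 array left out, the counts between genotypes were 0 to 3 at day 2 (0 without knockout mouse 254 or 258, 3 without control mouse 264) and 0 to 3 at day 6 (0 without knockout mouse 312 or 337 or control mouse 392 or 393). In controls they were 3 to 9 at day 2 (9 without mouse 263) and 0 to 4 at day 6 (0 without mouse 263 or 265 at day 0, 4 without mouse 303 at day 6). They were 0 to 1 in knockouts at day 2 and 0 at day 6. The 1, without mouse 258 at day 0, was Cyp2c55, which could only be lower at day 2. For the response they were 0 to 2 at day 2 (2 without control mouse 263 or 264) and 0 at day 6. A group left with 2 arrays, or 1 in the fit without 3 arrays, borrows its spread from the others. The count between genotypes at day 2 was 0 without the filter, 0 with only the groups compared, 0 without the 3 arrays of poorer RNA (an alternative chosen after seeing the data) and 2 after quantile normalization. With only the groups compared, the counts were 0 between genotypes at day 6, 0 in controls at day 2, 0 in controls at day 6 and 1 for the day 2 response (Cyp2g1). The count in controls at day 2 was 1 without the 3 arrays. The count in controls at day 6 was 1 after quantile normalization and 1 after median centring. The cause of these changes was not tested, apart from the smaller number of arrays or genes.

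With the mouse as replicate block the counts were 10 between genotypes at day 0 (with Cyp2c37 added), 1 at day 2 and 2 at day 6. They were 4 in controls at day 2 and 2 at day 6, and 0 elsewhere, so that the pairing changed no other call among members. Cyp2c37 passed the filter through control arrays alone, so the added call is no support for a difference. Among uncalled differences, the sign turned for Cyp1a2 between genotypes at day 2 (-0.55 without knockout mouse 250, -1.02 without control mouse 265), Cyp2c29 at day 2 (0.19 without control mouse 263, 0.08 without control mouse 264) and Cyp3a11 (-0.09 at day 0 after median centring, -0.05 at day 2 without control mouse 265). With 1 array left out these day 2 differences ranged from -1.02 to 1.44, from -1.24 to 0.19 and from -0.05 to 0.49. Without control mouse 265 Cyp2c29 was called at day 2 (-1.24), and without control mouse 263 Cyp3a11 was called in controls at day 2 (-0.61). Median centring moved the median difference of all genes between genotypes from 0.02 to -0.12 at day 0 and from -0.03 to -0.20 at day 6, and that of the members from -0.42 to -0.56 and from -0.13 to -0.30.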
